A study of Mus musculus with 12 samples.

Results

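Transcripts of 10 genes that hold back signalling through the kinases ERK, JNK or p38 were followed in the mouse mammary epithelial line HC11. The cells were in a migration assay, with and without knockdown of Snail1. The genes are 5 MAP kinase phosphatase genes (Dusp1, Dusp4, Dusp5, Dusp6 and Dusp10), 3 Sprouty genes (Spry1, Spry2 and Spry4) and 2 Spred genes (Spred1 and Spred2). They were chosen by symbol, with earlier results of these data known, and all 10 are among the 57180 genes of the deposited table. A test was run on genes that reached 1 TPM (a transcript level corrected for gene length and library total) in 3 or more libraries. That filter kept 14426 genes and 9 of the 10, since Spry4 stayed below it.

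Stranded mRNA libraries were made from aggregates of flow-sorted cells that had been left overnight in RPMI 1640 medium with 2% FBS, 10 ng/ml EGF and 5 µg/ml insulin. The 12 libraries form 4 groups of 3: Snail1 KD sampled at 36 h, Snail1 KD sampled at 0 h, control sampled at 36 h and control sampled at 0 h. Libraries are numbered 1, 2 and 3 within a group, except that control at 36 h has 1, 3 and 4. Knockdown libraries carry the genotype label Snail1 KD, and control libraries carry the genotype label WT and a title that begins with, or contains, scr. Beyond the letters sh in group column headers and scr in titles, the knockdown reagent, and whether the cells are 1 clone or many, are not given in the sources used here. Separate cultures are not mentioned for libraries of the same group, so p-values measure the spread between these libraries, which may be technical. Library 4 of control at 36 h has the word mix in its title, which the labels leave unexplained; if it is a pool, that group holds fewer than 3 independent samples.

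Growth factor receptors switch on the Ras, Raf, MEK and ERK cascade, and ERK in turn induces genes whose products restrain it. MAP kinase phosphatases of the Dusp family remove the activating phosphates from ERK, JNK or p38, each with its own preference and place in the cell. Sprouty and Spred proteins act higher up, at the membrane, where they limit activation of Ras and Raf. In mammary epithelium, ERK signalling downstream of EGF and FGF receptors drives branching and collective movement of cells. Snail1, a zinc finger repressor encoded by Snai1, is best known for its part in epithelial to mesenchymal transition.

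Snai1 itself was lower in every knockdown library than in any control library of the same time. At 0 h it measured 0.58, 0.79 and 0.48 TPM in knockdown libraries, against 1.34, 2.51 and 1.69 TPM in control libraries, with a log2 fold change of -0.80 (adjusted p = 0.0348). At 36 h it measured 0.58, 0.44 and 0.20 TPM in knockdown libraries, against 2.77, 2.69 and 3.92 TPM in control libraries, with a log2 fold change of -1.55 (adjusted p = 0.0105). Under median-of-ratios scaling its 0 h difference missed the threshold (adjusted p = 0.191), while without knockdown 0 h library 2 it was -0.88 (adjusted p = 0.0245). That library stood apart from the rest. Mitochondrially encoded genes took 14.0% of its TPM, against 1.45% to 6.15% in the other 11 libraries, and cytosolic ribosomal protein genes took 12.7%, against 3.90% to 5.90%. Its median-of-ratios factor was 0.504, against 0.897 to 1.22 elsewhere, so most of its other genes sit low on the TPM scale. Summed over the 10 feedback genes, it held 56.5 TPM, against 115 and 145 TPM in the other knockdown 0 h libraries and 283 to 303 TPM in control 0 h libraries. Results that rest on it are therefore mostly also given without it, but the lists of most similar genes are not.

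All 8 epithelial markers passed the filter, and they summed to 3346 to 10341 TPM in knockdown 0 h libraries and 10134 to 10349 TPM in control 0 h libraries, and to 19541 to 25528 TPM in knockdown 36 h libraries and 15977 to 18884 TPM in control 36 h libraries. None of the 8 was called between knockdown and control at 0 h, but their median log2 fold change was -0.88, about as low as that of the feedback genes, and -0.37 with median-of-ratios scaling. Without library 2 of the knockdown at 0 h it was -0.35, with 2 of the 8 called lower. That fit called 16.8% of all tested genes lower, and the fit with all libraries 14.6%. Over time the epithelial markers did not move as one. In control, Epcam, which encodes an epithelial adhesion molecule, averaged 679 TPM at 36 h and 1124 TPM at 0 h (60.4%), and Krt14, a basal keratin gene, averaged 13388 TPM at 36 h and 7167 TPM at 0 h (187%), neither called; Krt5 rose in both cell types and Krt14 in knockdown. The 6 fibroblast markers summed to 2.64 to 14.4 TPM in knockdown 0 h libraries and 13.1 to 14.8 TPM in control 0 h libraries, and to 6.82 to 12.4 TPM in knockdown 36 h libraries and 11.6 to 22.5 TPM in control 36 h libraries. Of these, Pdgfra reached 11.1 TPM and Col1a1 reached 10.3 TPM, while Dpt was at 0 in every library and Lum did not exceed 0.05 TPM. The 6 immune markers summed to 5.35 to 10.6 TPM in knockdown 0 h libraries and 9.84 to 14.7 TPM in control 0 h libraries, and to 2.11 to 2.53 TPM in knockdown 36 h libraries and 3.31 to 3.93 TPM in control 36 h libraries, nearly all of it Cd68, while Ptprc did not exceed 0.17 TPM. The 4 endothelial markers summed to 0.49 to 3.90 TPM in knockdown and 2.97 to 3.86 TPM in control libraries at 0 h. At 36 h they summed to 4.36 to 6.82 TPM in knockdown and 3.6 to 7.07 TPM in control libraries. Most of this was Pecam1, which reached 6.98 TPM, while Cdh5 was at or below 0.02 TPM. The part of these genes in the results below was not tested.

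Dusp6, the cytoplasmic phosphatase that acts mainly on ERK and whose transcript is a common readout of ERK activity, was the most abundant of the 10 genes in every group. Its mean level was 64.7 ± 4.07 TPM in knockdown and 114 ± 20.5 TPM in control at 36 h, and 55.2 ± 29.4 TPM in knockdown and 182 ± 11.2 TPM in control at 0 h (SD, n = 3 each). Spred1 came next in 3 groups. Its means were 28.1 TPM in knockdown and 39.9 TPM in control at 36 h, and 23.8 TPM in knockdown at 0 h. In knockdown at 0 h the range of its libraries overlapped that of Dusp6, but Dusp6 was the higher within each library. In control at 0 h, Dusp1 stood above Spred1 in the mean (37.9 against 35.1 TPM), but the libraries of these genes overlapped. Overlap of genes here compares their ranges over libraries, not values within a library. Dusp1 and Dusp4 filled the middle ranks, and Spry1, Spred2, Spry2, Dusp5 and Dusp10 lay between 1.06 and 7.78 TPM in their group means. In knockdown at both times, each of the ranks from Dusp1 or Dusp4 down to Dusp10 overlapped the next, whereas in control some neighbours were separated, such as Dusp1 above Spry1 at 36 h and Dusp4 above Spry1 at 0 h. Spry4 was lowest everywhere, at 0.03 to 0.51 TPM, with overlapping groups. In the panel of levels by group, control at 0 h has the highest mean for Dusp1, Dusp4, Dusp5, Dusp6, Dusp10, Spry1 and Spred2.

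**Figure D1:**
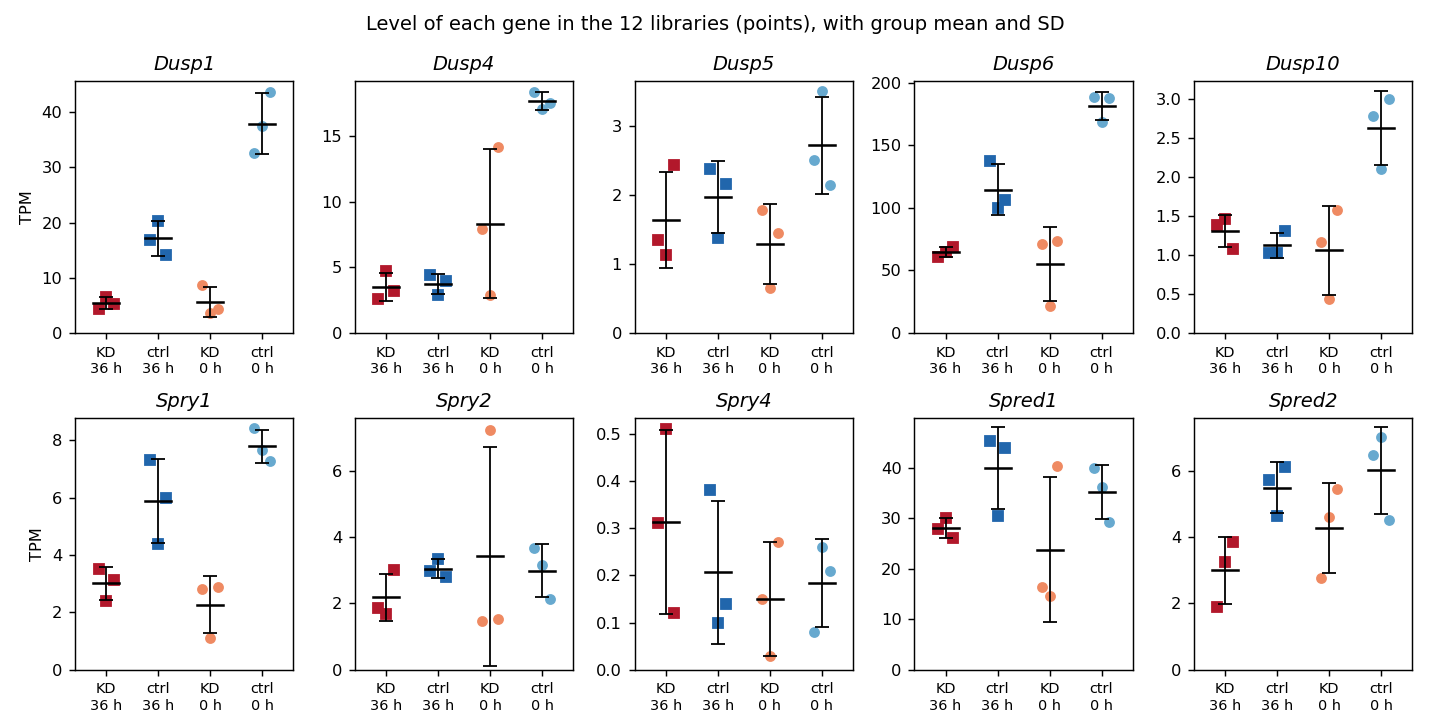
Level in TPM (vertical axes, from 0, each gene on its own scale) of the 10 feedback genes in the 12 libraries; KD is Snail1 knockdown and ctrl is control, points are libraries, bars are group means and whiskers are SD (n = 3 each). Dusp1 and Dusp6 libraries of the knockdown lie below those of the control at both times, whereas Spry2 is scattered at 0 h by 1 knockdown library at 7.24 TPM.

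Promoter sequence is shown for Dusp1, Dusp6 and Spry1, the 3 genes called lower in knockdown at 0 h with and without median-of-ratios scaling, and for Dusp5, which holds searched motifs but did not pass that test. Each window covers the 250 bases before the transcription start, 5′ to 3′ on the gene's strand, from RefSeq on GRCm38.p6, a different build from the GRCm39 named in the submitters' processing notes. Windows were used for 8 of the 10 genes (Dusp1, Dusp5, Dusp6, Dusp10, Spry1, Spry2, Spred1 and Spred2). No window was found for Dusp4, and Spry4 was left out. Capitals mark matches on either strand to a cAMP response element (TGACGTCA), an AP-1 site (TGANTCA) or an ETS site (CCGGAA). They also mark the Snail E-box (CAGGTG) and a CArG box, the core of the serum response element.
Dusp1, chr17:26508473-26508722, strand minus: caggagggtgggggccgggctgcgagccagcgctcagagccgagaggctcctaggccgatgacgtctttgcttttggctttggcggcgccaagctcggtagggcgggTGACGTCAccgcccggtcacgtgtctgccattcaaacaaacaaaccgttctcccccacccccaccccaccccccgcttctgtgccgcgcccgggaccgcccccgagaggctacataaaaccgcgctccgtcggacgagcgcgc
Dusp5, chr19:53528895-53529144, strand plus: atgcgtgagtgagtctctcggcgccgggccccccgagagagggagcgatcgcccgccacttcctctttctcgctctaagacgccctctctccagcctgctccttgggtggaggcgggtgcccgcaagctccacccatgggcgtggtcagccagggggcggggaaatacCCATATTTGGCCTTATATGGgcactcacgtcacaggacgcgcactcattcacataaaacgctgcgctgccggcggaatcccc
Dusp6, chr10:99262981-99263230, strand plus: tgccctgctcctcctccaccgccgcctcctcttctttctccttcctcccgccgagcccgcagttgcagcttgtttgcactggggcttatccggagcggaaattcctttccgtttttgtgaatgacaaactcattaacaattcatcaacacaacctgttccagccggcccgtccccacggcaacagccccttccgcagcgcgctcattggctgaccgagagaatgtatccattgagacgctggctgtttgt
Spry1, chr3:37639697-37639946, strand plus: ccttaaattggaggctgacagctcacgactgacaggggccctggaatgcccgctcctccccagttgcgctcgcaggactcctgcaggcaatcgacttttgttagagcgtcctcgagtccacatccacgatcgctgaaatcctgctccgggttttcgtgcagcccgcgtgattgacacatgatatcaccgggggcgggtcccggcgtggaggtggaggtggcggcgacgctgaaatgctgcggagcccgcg

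The Dusp1 window held a full cAMP response element, 143 to 136 bases before the start, a motif found in 1.55% of all 32851 windows. The Dusp5 window held 2 adjoining CArG boxes, 82 to 73 and 72 to 63 bases before the start, where 1.47% of all windows held any. The windows of Dusp6 and Spry1 held none of these letters. The shorter core TGACG, which lies inside the full response element and is not capitalised, was present in 3 of the 8 windows (Dusp1, Dusp5 and Spred2), against 17.8% of all windows. None of the 8 windows held the Snail E-box, against 17.2% of all windows, or the AP-1 letters, against 6.75%. None held the ETS letters CCGGAA, which 3952 windows held. The shorter ETS core GGAA, which occurs in the Dusp5, Dusp6 and Spry1 windows among others, was not searched, so no share of all windows is given. These matches describe letters in the windows and say nothing of binding.

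At 0 h, knockdown cells had less RNA from the phosphatase genes Dusp1, Dusp6 and Dusp10 and from the Sprouty gene Spry1 than control cells. These 4 were called of 9 tested, all lower, where 14.6% of all tested genes were called lower. In 6 of the 9 (those 4 with Dusp4 and Dusp5), every knockdown library lay below every control library, against 30.7% of all tested genes. The median log2 fold change of the 9 was -0.85, against -0.41 over all tested genes. The comparison asks how the cells differ with less Snail1 at the start of the migration assay. In bulk RNA, fewer cells of a type and less RNA per cell cannot be told apart.

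Dusp1, a nuclear immediate early phosphatase that acts on p38, JNK and ERK, differed most. It measured 8.77, 3.71 and 4.42 TPM in knockdown libraries, against 32.7, 37.5 and 43.6 TPM in control libraries. The highest knockdown library lay far below the lowest control library, and the knockdown mean was 14.9% of the control mean. Dusp1 fell by 2.62 on the log2(TPM + 1) scale (SE 0.285, adjusted p = 9.38e-04), and the call held in 24 of 24 alternative settings, with adjusted p-values of 1.79e-04 to 0.0451. Its log2 fold change was -2.41 without knockdown 0 h library 2.

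Dusp6 measured 71.3, 21.2 and 73.1 TPM in knockdown libraries, against 188, 169 and 188 TPM in control libraries. Libraries 1 and 3 of the knockdown lay close together and library 2 well below them, with no overlap with the control. Dusp6 fell by 1.89 (SE 0.383, adjusted p = 0.0102). Without knockdown 0 h library 2 its log2 fold change was -1.32 (SE 0.134, adjusted p = 2.00e-04), and with median-of-ratios scaling as well it was -1.11. A model of the 0 h libraries alone did not call it (adjusted p = 0.1003).

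Spry1, which restrains signalling from growth factor receptors to Ras, measured 2.80, 1.12 and 2.90 TPM in knockdown libraries, against 8.42, 7.66 and 7.27 TPM in control libraries. The groups were well separated, with a knockdown mean at 29.2% of the control mean. Spry1 fell by 1.47 (SE 0.271, adjusted p = 0.00684). Its log2 fold change was -1.19 without knockdown 0 h library 2 (adjusted p = 0.00373), and the model of the 0 h libraries alone did not call it (adjusted p = 0.0785).

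Dusp10, a phosphatase that prefers JNK and p38 over ERK, measured 1.16, 0.44 and 1.57 TPM in knockdown libraries, against 2.77, 2.10 and 3.0 TPM in control libraries. The groups did not overlap, but these levels are close to the filter on low values. Dusp10 fell by 0.85 (SE 0.239, adjusted p = 0.0337), and this call was lost in 14 of 23 alternatives, with adjusted p-values over the 23 of 0.0106 to 0.162. Leaving out any 1 of the 3 control 0 h libraries, knockdown 36 h library 1 or 2, or control 36 h library 4 ended it (adjusted p of 0.0506 to 0.107). With median-of-ratios scaling its log2 fold change was -0.59 (adjusted p = 0.0589).

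Dusp4 and Dusp5, nuclear phosphatases, did not pass the test at 0 h. Dusp4, which acts on ERK and JNK, measured 7.93, 2.91 and 14.2 TPM in knockdown libraries, against 18.4, 17.1 and 17.5 TPM in control libraries. The knockdown libraries were widely spread and all lay below the tightly grouped control libraries. Its log2 fold change was -1.21 (95% interval -2.08 to -0.33, adjusted p = 0.0579); without knockdown 0 h library 2 it was -0.68 (adjusted p = 0.0911), and without knockdown 0 h library 3 it was -1.66 and called (adjusted p = 0.00621). Without library 3, however, 35.3% of all tested genes were called lower and the median of all genes was -0.59. Dusp5, which acts on ERK, measured 1.78, 0.65 and 1.45 TPM in knockdown libraries, against 2.51, 3.51 and 2.15 TPM in control libraries, again without overlap, with a log2 fold change of -0.72 (95% interval -1.33 to -0.10, adjusted p = 0.0916).

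Spry2 and the Spred genes overlapped between groups at 0 h. Spry2 measured 1.48, 7.24 and 1.53 TPM in knockdown libraries, against 3.68, 3.16 and 2.13 TPM in control libraries, so that knockdown library 2, alone of its group, lay above the control. Its log2 fold change was -0.08 (95% interval -0.97 to 0.81) with all libraries and -0.65 (adjusted p = 0.0728) without that library. Spred1, which with Spred2 brings neurofibromin to the membrane, measured 16.4, 14.6 and 40.4 TPM in knockdown libraries, against 39.9, 36.2 and 29.3 TPM in control libraries. Here knockdown library 3 was the one that reached the control range; the log2 fold change was -0.68 (adjusted p = 0.160), and -1.12 without library 3 (adjusted p = 0.00656), where 35.3% of all tested genes were called lower. Spred2 measured 2.78, 4.62 and 5.45 TPM in knockdown libraries, against 6.49, 7.03 and 4.53 TPM in control libraries, with a log2 fold change of -0.43 (95% interval -1.03 to 0.18).

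**Figure D2:**
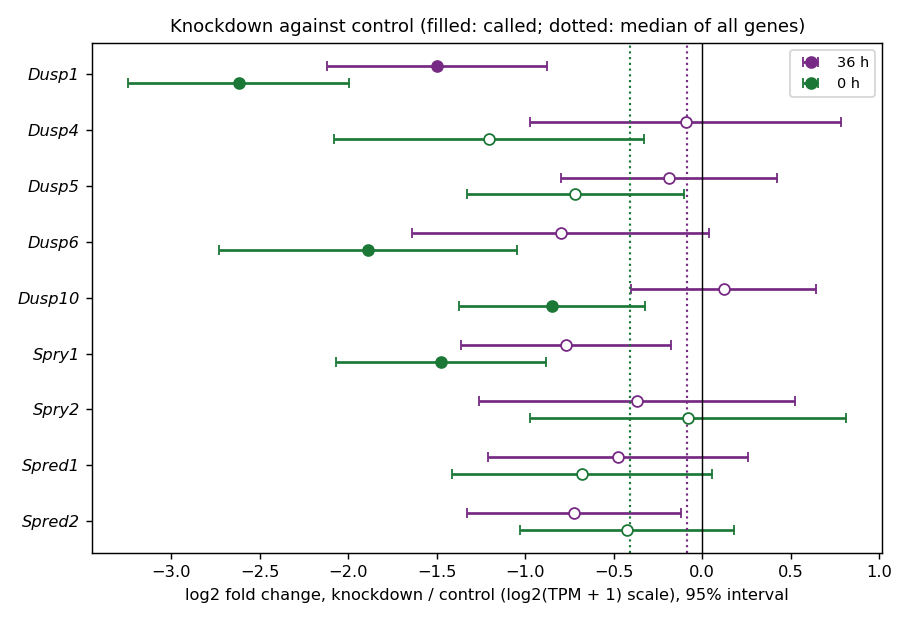
Log2 fold change of knockdown over control (horizontal axis, log2(TPM + 1) scale) for the 9 tested genes at 36 h and at 0 h, with 95% intervals; filled points were called at an adjusted p under 0.05 and dotted lines mark the median of all tested genes. Dusp1 is filled at both times, at -1.50 and -2.62, while Dusp6, Dusp10 and Spry1 are filled at 0 h alone.

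For the 4 genes called at 0 h, the differences were smaller with another scaling or without the library that stood apart. Median-of-ratios scaling moved the median of all tested genes to 0.02, against -0.41 on the deposited scale. Under it 3 of the 9 were called lower (Dusp1 at -2.16, Dusp6 at -1.38 and Spry1 at -1.11), against 10.2% of all tested genes. Without knockdown 0 h library 2 the same 4 genes as in the full set were called, against 16.8% of all tested genes, and the median of all genes was -0.17. The log2 fold change was then -0.50 for Dusp5, -0.42 for Spred1 and -0.49 for Spred2, none of them called. Spry2 and Spred2 had positive log2 fold changes, 0.36 and 0.02, with median-of-ratios scaling, neither of them called.

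**Figure D3:**
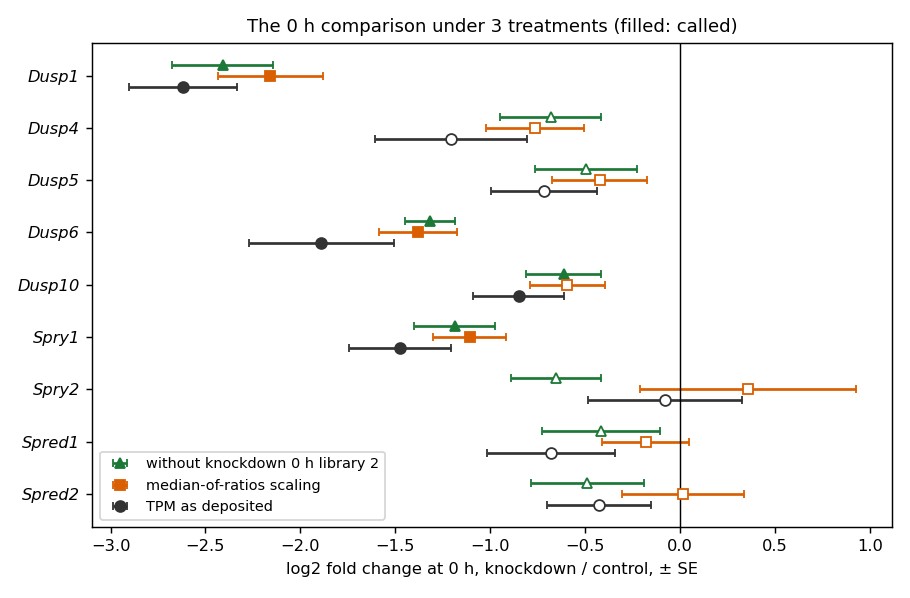
Log2 fold change at 0 h, knockdown over control, with SE, for the 9 tested genes under 3 treatments, which are median-of-ratios scaling, leaving out library 2 of knockdown at 0 h, and the TPM as deposited; filled symbols were called. Dusp1, Dusp6 and Spry1 are filled in all 3 treatments, and Dusp10 is open with median-of-ratios scaling.

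At 36 h of the assay, Dusp1 was the gene called lower in knockdown, 1 of 9, where 1.64% of all tested genes were called lower. It measured 4.39, 6.53 and 5.32 TPM in knockdown libraries, against 16.9, 20.4 and 14.1 TPM in control libraries. The groups lay well apart, with a knockdown mean at 31.6% of the control mean. Dusp1 fell by 1.50 (SE 0.285, adjusted p = 0.0254), but the call was lost when any 1 of the 6 libraries at 36 h was left out (adjusted p of 0.0670 to 0.111), when control 0 h library 2 was left out (adjusted p = 0.0524), and in 10 of 24 alternatives in all. Its log2 fold change lay between -1.65 and -1.28 over those 24.

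In 5 of the 9 genes (Dusp1, Dusp6, Spry1, Spred1 and Spred2), every knockdown library at 36 h lay below every control library, against 22.0% of all tested genes. The median log2 fold change of the 9 was -0.47, against -0.09 over all tested genes. Dusp6 measured 60.8, 64.5 and 68.9 TPM in knockdown libraries, against 138, 99.6 and 106 TPM in control libraries. Its knockdown libraries were tightly grouped, and its log2 fold change was -0.80 (95% interval -1.64 to 0.04, adjusted p = 0.338). Spry1 measured 3.50, 2.38 and 3.14 TPM in knockdown libraries, against 7.30, 4.38 and 5.97 TPM in control libraries, with a log2 fold change of -0.77 (adjusted p = 0.175).

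These calls turned on how the spread was estimated, since all 12 libraries share 1 estimate per gene. Without knockdown 0 h library 2, which is not part of this comparison, 3 of the 9 were called lower at 36 h, against 12% of all tested genes. They were Dusp1 (adjusted p = 0.00237), Dusp6 (0.00179) and Spry1 (0.0205), with the same log2 fold changes as before.

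Neither Spred gene was called at 36 h. Spred1 measured 28.0, 30.1 and 26.1 TPM in knockdown libraries, against 45.3, 30.6 and 43.9 TPM in control libraries, with a log2 fold change of -0.47 (adjusted p = 0.569). Spred2 measured 1.89, 3.26 and 3.85 TPM in knockdown libraries, against 5.73, 4.63 and 6.13 TPM in control libraries, with a log2 fold change of -0.73 (adjusted p = 0.211). Both were without overlap between groups, although for Spred1 the nearest libraries, 30.1 TPM in knockdown and 30.6 TPM in control, almost met.

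Dusp4, Dusp5, Dusp10 and Spry2 overlapped between groups at 36 h. Dusp4 measured 2.62, 4.69 and 3.21 TPM in knockdown libraries, against 4.43, 2.93 and 3.94 TPM in control libraries, with a log2 fold change of -0.09 (95% interval -0.97 to 0.78). Dusp10 measured 1.38, 1.46 and 1.08 TPM in knockdown libraries, against 1.03, 1.02 and 1.31 TPM in control libraries, with a log2 fold change of 0.12 (95% interval -0.40 to 0.64). For both, knockdown and control libraries were mixed in rank, unlike at 0 h. Dusp5 measured 1.35, 1.13 and 2.43 TPM in knockdown libraries, against 2.38, 1.38 and 2.16 TPM in control libraries, and Spry2 measured 1.86, 1.69 and 3.0 TPM in knockdown libraries, against 2.99, 3.35 and 2.81 TPM in control libraries. Their log2 fold changes were -0.19 and -0.37.

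Between 36 h and 0 h in control cells, no feedback gene was called (0 of 9, with 0.111% of all tested genes called lower and 803 of 14426 genes at an unadjusted p under 0.05). In 4 of the 9 (Dusp1, Dusp4, Dusp6 and Dusp10), however, every control library at 36 h lay below every control library at 0 h, against 12.3% of all tested genes. Dusp4 had the most negative log2 fold change, with 4.43, 2.93 and 3.94 TPM at 36 h, against 18.4, 17.1 and 17.5 TPM at 0 h. Its level at 36 h was 21.3% of that at 0 h, with a log2 fold change of -1.98 (95% interval -2.86 to -1.10, adjusted p = 0.0787). It was called in 8 of 24 alternatives, among them median-of-ratios scaling (adjusted p = 0.00648, with 0.263% of all tested genes called lower). The model of control libraries alone also called it (adjusted p = 0.00306, with 170 of 13311 genes called lower), as did the fit without knockdown 0 h library 3 (adjusted p = 0.0169, with 0.182% of all tested genes called lower).

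Dusp1 in control cells had 16.9, 20.4 and 14.1 TPM at 36 h, against 32.7, 37.5 and 43.6 TPM at 0 h, with a log2 fold change of -1.11 (adjusted p = 0.237). Dusp6 had a log2 fold change of -0.67 and Dusp10 of -0.77, with means at 36 h of 63.0% and 42.7% of those at 0 h. Without knockdown 0 h library 2, these 4 genes were called lower over time in control, against 1.60% of all tested genes, with adjusted p-values of 0.0358 for Dusp1, 0.00186 for Dusp4, 0.0149 for Dusp6 and 0.0496 for Dusp10. Dusp5 and the Sprouty and Spred genes overlapped between the times in control, with log2 fold changes of -0.32 for Dusp5, -0.37 for Spry1, 0.04 for Spry2, 0.17 for Spred1 and -0.10 for Spred2.

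In knockdown cells, none of the 9 genes was called between 36 h and 0 h, where 0.998% of all tested genes were called higher, 0.125% were called lower and 2363 of 14426 had an unadjusted p under 0.05. All 9 overlapped between the times, but the share over all tested genes is not given here, so this does not set them apart. Their median log2 fold change was 0.20, against 0.33 over all tested genes, and with median-of-ratios scaling it was -0.01, against 0.00. Leaving out knockdown 0 h library 2 gave -0.03, against 0.07. Dusp4 had the most negative log2 fold change, -0.87 (95% interval -1.75 to 0.01), with 2.62, 4.69 and 3.21 TPM at 36 h, against 7.93, 2.91 and 14.2 TPM at 0 h. Library 2 at 0 h fell within the 36 h range; without it the log2 fold change was -1.39 and called (adjusted p = 0.0229), with 0.914% of all tested genes called lower. Dusp1 had a log2 fold change of 0.01 (95% interval -0.61 to 0.64), and the others lay between -0.40 for Spred2 and 0.42 for Dusp6. When knockdown 0 h library 2 was left out, the values of Dusp1 and Dusp6 were -0.20 and -0.16, of opposite sign. Spred1 had a log2 fold change of 0.37, and 0.82 without knockdown 0 h library 3, which was called (adjusted p = 0.0487). In that fit 9.88% of all tested genes were called higher and their median was 0.51, and Spred1 was at -0.01 with median-of-ratios scaling of all libraries.

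**Figure D4:**
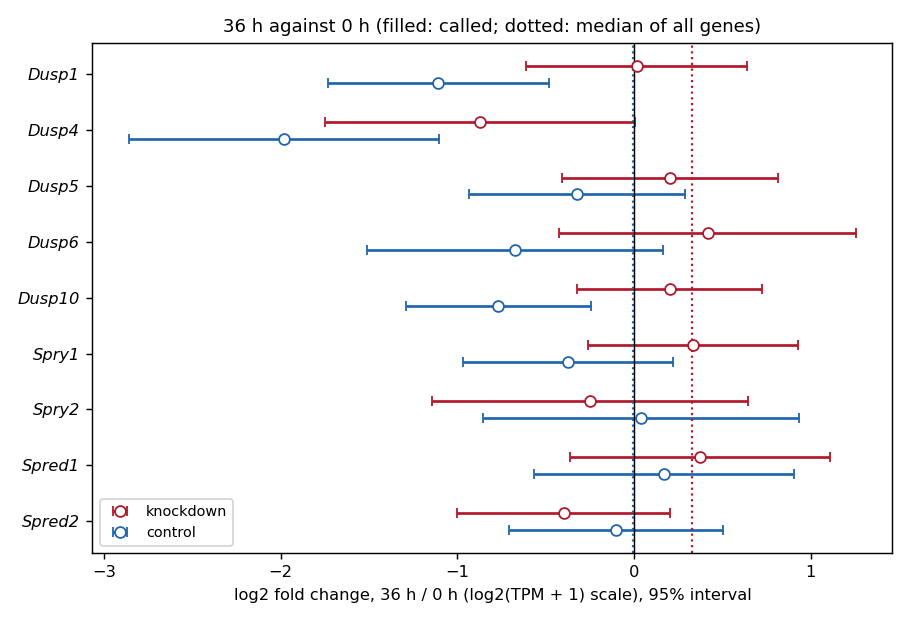
Log2 fold change of 36 h over 0 h (horizontal axis, log2(TPM + 1) scale) for the 9 tested genes in knockdown and in control cells, with 95% intervals; open points were not called and dotted lines mark the median of all tested genes. Dusp4 lies furthest left in both, at -0.87 in knockdown and -1.98 in control. In 7 of the 9 genes the knockdown point lies to the right of the control point. The medians of all tested genes lie in the same order, at 0.33 in knockdown and -0.01 in control.

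The difference between these time changes, knockdown minus control, was tested directly. None of the 9 was called, and neither was any other tested gene (0.00% of all, with 766 of 14426 at an unadjusted p under 0.05). The difference was 1.12 for Dusp1 (95% interval 0.24 to 2.00, unadjusted p = 0.0173), 0.97 for Dusp10 (0.23 to 1.71, unadjusted p = 0.0148), 1.11 for Dusp4 and 1.09 for Dusp6. All 9 had adjusted p-values of 0.595 or higher. The median over the 9 was 0.71, against 0.34 over all tested genes, and with median-of-ratios scaling 0.44, against 0.01. It was 0.42 without knockdown 0 h library 2, against 0.09, with 0.91 for Dusp1, 0.59 for Dusp4 and 0.52 for Dusp6. In 23 alternatives the difference for Dusp1 lay between 0.57 and 1.44 without being called. The knockdown effects at 36 h and at 0 h are thus not shown to differ for any of these genes.

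Other brakes on the pathway are set beside them, from lists of textbook members written with earlier results of these data known. Of 5 further MAP kinase phosphatase genes, 3 were tested, and 2 were called lower in knockdown at 0 h, against 14.6% of all tested genes. Dusp8, whose product acts on JNK and p38, measured 1.55, 0.79 and 1.74 TPM in knockdown libraries, against 5.05, 4.96 and 4.17 TPM in control libraries, and fell by 1.30 (adjusted p = 0.00373). Dusp7, a cytoplasmic ERK phosphatase, measured 15.3, 10.2 and 25.5 TPM in knockdown libraries, against 44.3, 47.2 and 38.7 TPM in control libraries, and fell by 1.39 (adjusted p = 0.0113). Both were set apart from the control without overlap, as Dusp1, Dusp6 and Spry1 were. At 36 h Dusp8 fell by 1.16 (adjusted p = 0.0214), while Dusp7 had a log2 fold change of -1.10 (adjusted p = 0.0751), which was called with median-of-ratios scaling (adjusted p = 0.00586) and without knockdown 0 h library 2 (adjusted p = 0.0045). The 0 h calls of both held with median-of-ratios scaling and without knockdown 0 h library 2. Dusp16, a JNK phosphatase, was not called, and Dusp2, Dusp9 and Spred3 were below the filter; Spry3 was not analysed here.

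Among 8 tested brakes that act on receptors or on Ras, 3 were called lower at 0 h, against 14.6% of all tested genes. These were Rasa1 (-0.73), a Ras GTPase activating protein, Errfi1 (-0.81), an inhibitor of the EGF receptor, and Cblb (-0.92), a ubiquitin ligase. None of them was called with median-of-ratios scaling, and Cblb was not called without knockdown 0 h library 2 (adjusted p = 0.0832). Of 8 tested receptors, 3 were called lower at 0 h, against 14.6% of all tested genes, namely Fgfr1 (-1.23), Erbb2 (-1.69) and Fgfr2 (-1.51). Fgfr1 was also called at 36 h (-1.12), where 1.64% of all tested genes were called lower. Erbb2 kept its 0 h call with median-of-ratios scaling (adjusted p = 0.0269), but not without knockdown 0 h library 2 (adjusted p = 0.0605); Fgfr1 lost it with that scaling (adjusted p = 0.0737) and Fgfr2 under both.

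In the ERK cascade 3 of 19 tested genes were called lower at 0 h and none at 36 h, against 14.6% and 1.64% of all tested genes. They were Rps6ka1, a kinase directly downstream of ERK, at -2.32, Araf at -1.44 and Braf at -0.81. The median of the 19 was -0.48, near the -0.41 of all genes. With median-of-ratios scaling it was 0.03, with 3 called lower and 2 called higher. Under that scaling 1469 of all 14426 tested genes were called lower and 1249 higher. Without knockdown 0 h library 2, 6 of the 19 were called lower at 0 h and 5 at 36 h, against 16.8% and 12% of all tested genes. In the JNK and p38 cascade 3 of 14 were called lower at 0 h (Mapk11 at -0.86, Mapk14 at -1.16 and Map2k3 at -1.35) and none at 36 h, with a median of -0.85 at 0 h; without that library 4 were called at 0 h and 2 at 36 h. The shares over all tested genes are those given for the ERK cascade.

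A further list of ERK outputs included the ETS factor genes Elk1, Elk3, Ets1 and Ets2. Of its 20 tested genes, 13 were called lower in knockdown at 0 h and none higher, against 14.6% of all tested genes called lower. Their median was -1.17, against -0.41 over all tested genes. Fos, an immediate early transcription factor gene, measured 15.3, 6.09 and 13.3 TPM in knockdown libraries, against 58.9, 56.9 and 72.9 TPM in control libraries, and fell by 2.42 (adjusted p = 0.00213). Jun fell by 2.42, Ccnd1, which encodes cyclin D1, by 1.58 and Phlda1 by 1.26. With median-of-ratios scaling 10 of the 20 were called lower, against 10.2% of all tested genes, and without knockdown 0 h library 2 it was 13, against 16.8%. At 36 h none of the 20 was called, where 1.64% of all tested genes were called lower, and their median was -0.74, against -0.09. The same list held 4 called lower at 36 h with median-of-ratios scaling, against 3.44% of all tested genes, and 12 without knockdown 0 h library 2, against 12%.

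**Figure D5:**
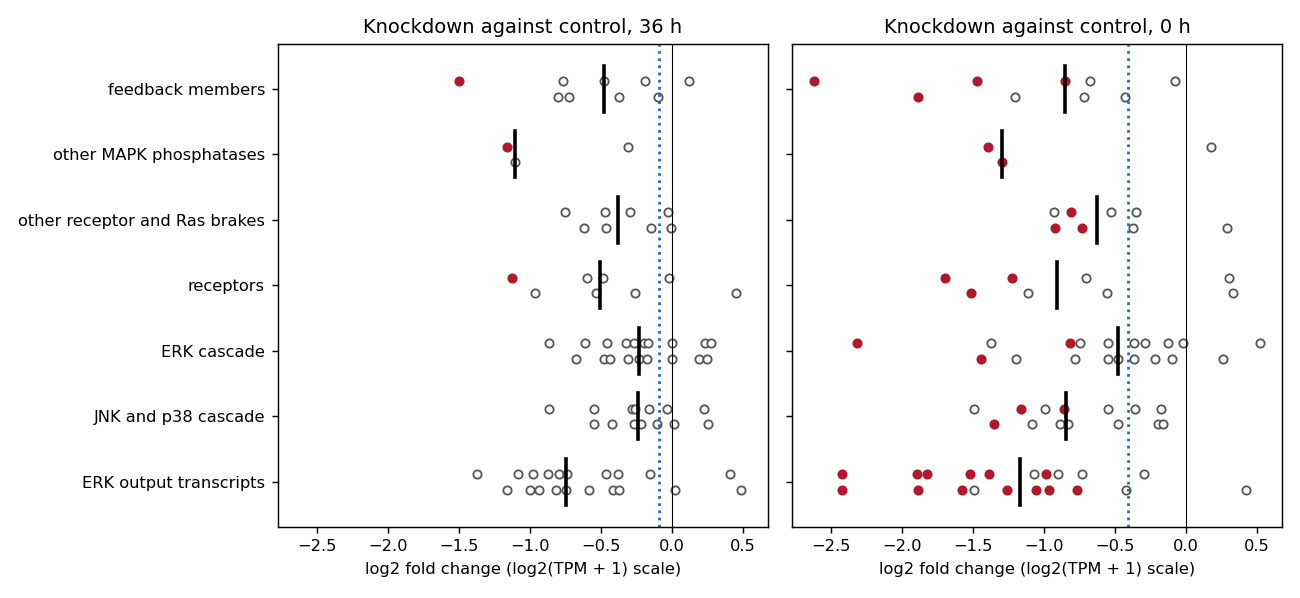
Log2 fold change of knockdown over control (horizontal axes, log2(TPM + 1) scale) for each tested gene of 7 lists at 36 h (left) and 0 h (right); filled points were called, black bars are list medians and the dotted line is the median of all tested genes. At 0 h the ERK output transcripts hold 13 filled points of 20 and the feedback members 4 of 9, and at 36 h the feedback members hold 1.

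The feedback genes also varied together in part. Over the 12 libraries, which share 4 groups and 1 library with a low scale, Dusp6 and Spry1 had the highest correlation of log2(TPM + 1) among the 36 pairs (Pearson r = 0.961, and 0.950 without knockdown 0 h library 2). Dusp1 and Dusp6 had r = 0.883, and 0.951 without that library. Dusp4 paired best with Dusp10 (r = 0.821). Spry2 had negative values with 6 of the 8 other genes, as low as -0.381 with Dusp10, but without knockdown 0 h library 2 only the value with Dusp4 was below 0, at -0.0156. These are descriptions of the libraries, since the groups alone can produce them.

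Among 9354 other genes with a mean of 5 TPM or more, those most like Dusp6 over the 12 libraries were Abhd4 (r = 0.997), Sphk1 (0.991) and Trpv4 (0.990). Dusp1 was most like Ncmap (0.976), Mxd3 (0.966) and Socs2 (0.966), and Spry1 was most like Tubb5 (0.980), Foxp1 (0.978) and Galns (0.975). Dusp4 was most like Plxdc1 (0.938), the immediate early gene Egr1 (0.931) and Igsf8 (0.930), and Dusp10 was most like Enpp2 (0.944), Ednra (0.943) and Errfi1 (0.941). The nearest genes were Sntb2 (0.891), Syne2 (0.884) and Inpp4b (0.880) for Dusp5, and Tsc22d1 (0.949), Crebbp (0.942) and Ppp1cb (0.941) for Spry2. For the Spred genes they were Dcbld2 (0.977), Canx (0.976) and Fam117b (0.975) for Spred1, and Pcm1 (0.900), Mast4 (0.899) and Fbxl18 (0.892) for Spred2. Each ranking used all 12 libraries and was not repeated without knockdown 0 h library 2. In that library Spry2 stood at 7.24 TPM, against 1.48 and 1.53 TPM in the other knockdown 0 h libraries.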

How the data were processed

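RNA of 12 HC11 libraries was sequenced, and the authors deposited 1 table of gene-level TPM, a level corrected for gene length and library total. HISAT2 2.2.1, HTSeq, cutadapt 1.9.1, FastQC, DESeq2 and the build GRCm39 are named in the submitters' processing notes; which of these produced the TPM is not given in the sources used here. Group columns in the table were not used (that for control at 36 h is the mean of libraries 1 and 3), nor was 1 further column. Counts could not be recovered, so depth is unknown and no counting error is given.

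Groups came from titles. Genes with TPM of at least 1 in 3 libraries or more entered limma 3.58.1 in R 4.3.3 (lmFit, contrasts.fit, eBayes with trend) on log2(TPM + 1), a scale that understates changes of low genes, with 1 mean per group over all 12 libraries and 5 comparisons. P-values are two-sided, Benjamini-Hochberg adjusted over all 14426 genes of a comparison, and called under 0.05. The script was tested on simulated data. Alternatives varied the pseudocount, filter, scaling, weights, libraries and a replicate block. Replicate numbers did not pair libraries. The named genes were Snai1, the 10 members, up to 4 called genes per list and the 3 most similar genes per member. Members and lists were chosen with earlier results of these data known.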

Additional observations from a re-analysis of the deposited data

How the results depend on the processing

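No fold change called with all libraries and TPM as deposited turned sign in any alternative. Of values called in an alternative alone, Spred1 over time in knockdown and Spry2 at 0 h changed sign in 3 and 6 other alternatives. Called members at 0 h, knockdown against control, numbered 4. Array weights gave 7 and the 0 h groups alone gave 1. Leaving out 1 library gave 3 to 6, with 6 without knockdown 0 h library 3. In that last fit 5038 of 14276 tested genes were called lower. At 36 h the count was 1; it was 0 without a filter on low values, 0 with the replicate block, 0 with the replicate block and median-of-ratios scaling, 2 with quantile normalization, 7 with array weights, 2 with the 36 h groups alone, and 3 without knockdown 0 h library 2 under median-of-ratios scaling. Leaving out 1 library gave 0 to 3, with 9 to 1701 of all tested genes called lower. Leaving out knockdown 0 h library 2 with control 36 h library 4, chosen after seeing the data, gave 2. That fit called 910 of 14093 genes lower. All genes called lower at 36 h numbered 118 of 35924 without a filter and 518 of 14426 with quantile normalization. The replicate block called 3 lower, and 17 with median-of-ratios scaling as well. Leaving out knockdown 0 h library 2 under that scaling called 1385 of 14227 lower. Over time in control the count was 0. It was 1 with median-of-ratios scaling, 1 with quantile normalization, 5 with array weights and 2 with the control groups alone. It was 3 without knockdown 0 h library 2 under median-of-ratios scaling, 1 without both libraries named above, and 0 to 4 with 1 library left out. In the same order, leaving aside array weights, all genes called lower numbered 38, 51, 170 of 13311, 220 of 14227, 83 of 14093, and 1 to 227. Over time in knockdown the count was 0. It was 1 with median-of-ratios scaling, with array weights, without knockdown 0 h library 2 under median-of-ratios scaling and without both libraries. With 1 library left out it was 0 to 1. Median-of-ratios scaling called 64 of 14426 genes lower, 144 of 14227 without knockdown 0 h library 2 as well. Without both libraries 76 of 14093 were called lower. Without knockdown 0 h library 2 alone 130 of 14227 were called lower, and without library 3 alone 1411 of 14276 higher. The difference of time changes gave 0 in each fit run; the fit of the groups compared does not exist for it.

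The array weights did not converge fully. They called 4949 of 14426 tested genes lower at 36 h, 2289 lower over time in control and 177 lower over time in knockdown. The 36 h groups alone called 1499 of 13491 genes lower. Same-numbered libraries correlated at -0.287 to 0.132 in their deviations from the group means, above 0.1 in 2 of 15 pairs, and 3 of 12 libraries correlated best with their own number, so the replicate block is no pairing; in it control 36 h library 4 has a term of its own. With the replicate block 3 members were called at 0 h, where it called 835 of 14426 genes lower. It called 0 members over time in knockdown or control. Few genes were called in those comparisons, 5 lower and 35 higher in knockdown, and 0 lower and 6 higher in control. Across all genes at 0 h, 2103 were called lower and 447 higher, against 1469 and 1249 with median-of-ratios scaling, 1582 and 1094 with quantile normalization, 3599 and 1085 with array weights, and 64 and 25 from the 0 h groups alone. The cause of these shifts was not tested. With 3 libraries a group and unknown depth, levels near 1 TPM are the least certain.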
